A study of Danio rerio with 40 samples.

Results

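Potassium channel genes, taken as the genes whose zebrafish symbol starts with kcn followed by family letters and a number, were followed in 40 whole-brain RNA libraries. The pattern was read on the 25806 genes of the authors' annotated table and gave genes in 19 families. Of these genes, 64 passed a filter on low counts and 43 did not, and each had a row among the 32520 genes of the count tables. The fish were wild-type AB adults, about 1 year old, and the study asked what a feed containing 60% gum Arabic (GA, the dried exudate of Acacia senegal) did to the animal when given for 2 weeks. By their labels, the 20 females held 10 fish on 60% GA and 10 on the Control feed, and the 20 males held the same numbers. Each count column could be tied to a sex, by the name of the table that held it, but no label ties a column to a feed. Ordered by a running number in their names, the columns repeat the sequence of sexes of the labelled samples. A match by order alone would be inferred, and it was not used. The measurements are therefore given by fish and by sex, no value is given for the feed, and the spread within a sex includes both feeds. Fish of several tanks entered each sex and the columns do not name the tank, so the tests treat fish that shared a tank as independent.

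Potassium channels let potassium leave the cell and so return a neuron to rest, set how fast it can fire again and hold its resting voltage. The families divide this work. Voltage-gated channels (kcna, kcnb, kcnc, kcnd, kcnh and kcnq) open on depolarisation, and the kcnf, kcng, kcns and kcnv subunits modify kcnb channels without forming channels of their own. The kcnn and kcnma channels open with intracellular calcium, the kcnt channels with sodium, the kcnj channels pass current more readily into the cell, and the tandem-pore kcnk channels carry the leak. Products of kcnab, kcnip, kcne and kcnmb are auxiliary subunits. The teleost genome duplication left many of these genes as a and b copies.

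The libraries held 10101103 to 17542635 estimated counts in females and 9392146 to 19131418 in males. The number of genes with any count ranged between 15540 and 22753 in females and between 16434 and 22293 in males, and it did not follow depth alone (r = 0.53 with the total over 40 libraries, a description). A set of 6 libraries, 3 female and 3 male, stood apart with 15540 to 17152 genes, against at least 18656 in each of the other 34. Their totals lay between 9392146 and 14109685 and included the 4 lowest of the 40, against at least 10720597 in the other 34. Several results below are also given without these 6 libraries. The neuronal marker list was present throughout, with a summed level of 7722 to 12000 CPM (counts scaled to a common library size, with TMM factors) in females and 8612 to 12150 CPM in males. Among markers of tissues that can adhere to a brain, those of red blood cells summed to at least 217 CPM in every fish. The highest sums of these tissues lay far above their medians. The highest sums were 1060 CPM for retina in a female (medians 6.11 CPM in females and 5.42 CPM in males), 7997 CPM for skin in a male (medians 19.0 CPM in females and 15.7 CPM in males), 60150 CPM for red blood cells in a male (medians 1659 CPM in females and 1324 CPM in males) and 382 CPM for pituitary in a male (medians 2.98 CPM in females and 4.90 CPM in males).

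No potassium channel gene of the set was without counts in every fish, but genes missing from the authors' annotated table were not searched. Among all members, 23 had a count in all 40 fish and 22 in fewer than 20. Among the least detected were the inward rectifiers kcnj2b (2 fish) and kcnj1a.5 (4 fish) and the voltage-gated kcna6a (5 fish) and kcna7 (7 fish). A mean of at least 1 CPM was reached by 63 genes, of which 46 lay below 10 CPM, 10 between 10 and 100 CPM and 7 at 100 CPM or more. Those 7 took 73.1% of the CPM of all members. They included the entry ENSDARG00000089255, whose symbol differs between sources, as given below. It stays in all counts, medians and sums of members unless stated. The filter kept 64 members for testing, and the 43 that it left out had means of 0.027 to 0.86 CPM. CPM is not corrected for transcript length, so the order of genes below is an order of counts collected and not of transcripts per cell.

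**Figure D1:**
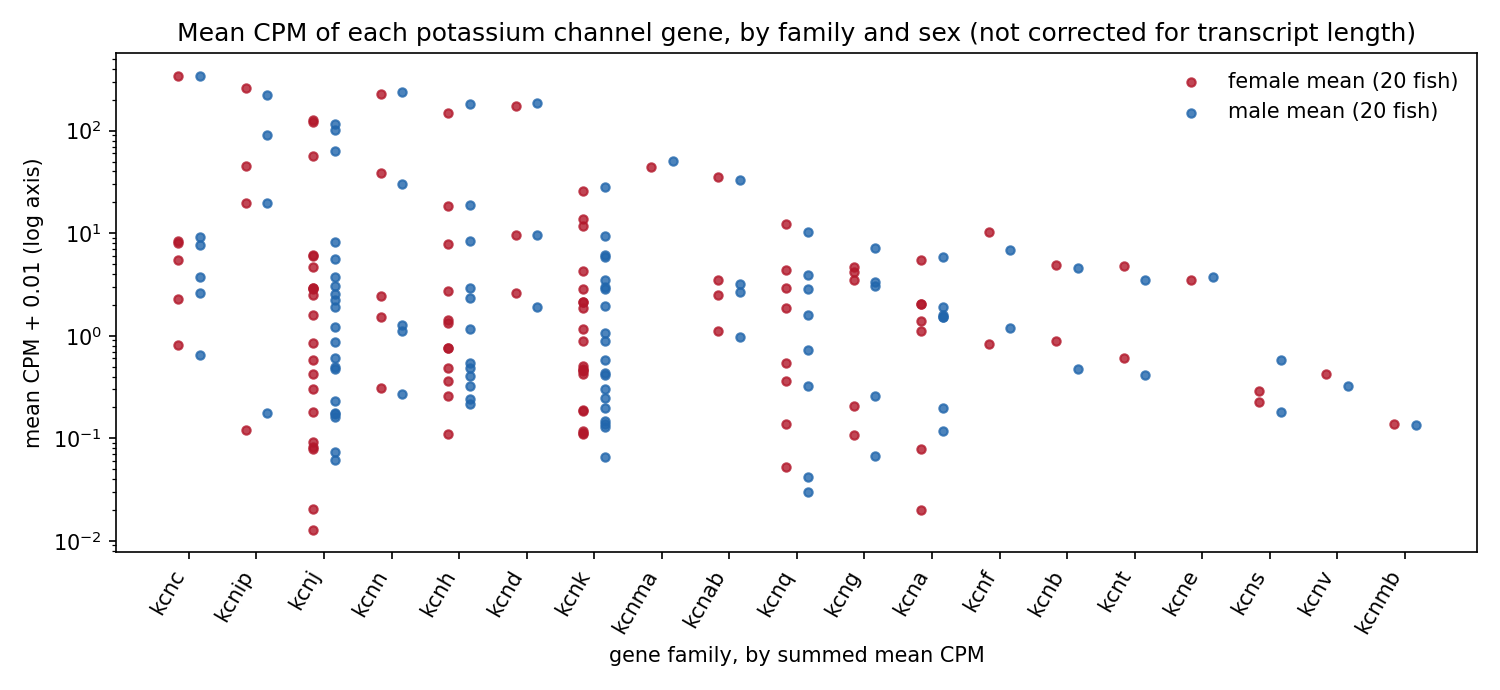
Mean CPM of each potassium channel gene (vertical axis, log scale, 0.01 added) in females (left points) and males (right points), by family in order of summed mean CPM. In kcnc, kcnn, kcnd and kcnh, 1 gene sits far above the rest of its family, and female and male means lie at similar heights.

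The kcnc family, channels of the Kv3 class that allow fast repeated firing, collected the most counts, 368 ± 108 CPM (SD, n = 40). Of these, kcnc1a held a median of 93.5% (range 70.1 to 99.3%). It ran between 151 and 709 CPM in females (median 314) and between 205 and 609 CPM in males (median 312). The ranges of the sexes overlapped almost throughout. The other family members with a mean above 1 CPM were kcnc3a (8.58), kcnc2 (8.07), kcnc1b (4.61) and kcnc3b (2.45).

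The calcium-binding kcnip subunits, which attach to Kv4 channels and raise their surface number, followed at 329 ± 51.5 CPM, led by kcnip1b. Their partner family kcnd, the Kv4 channels of the rapidly inactivating A-type current, held 190 ± 82.04 CPM. Within it kcnd2 gave a median of 95.2% of the counts, with 49.3 to 421 CPM in females (median 151) and 87.0 to 390 CPM in males (median 172). The other kcnd genes were far lower, kcnd3 at a mean of 9.57 CPM and kcnd1 at 2.23 CPM.

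The small-conductance calcium-activated kcnn family held 272 ± 105 CPM, with a median of 85.6% from kcnn1a. This gene lay between 86.7 and 413 CPM in females (median 206) and between 118 and 583 CPM in males (median 221). Its relative kcnn3 averaged 34.2 CPM, while kcnn2 (1.76 CPM) and kcnn1b (1.40 CPM) were low. The large-conductance channel kcnma1a averaged 47.2 ± 19.0 CPM. Its auxiliary subunit kcnmb2 averaged 0.13 CPM and had a count in 12 fish.

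In the kcnh family (200 ± 76.6 CPM), channels of the ether-a-go-go group, kcnh4b gave a median of 83.2% of the counts. It ranged between 38.3 and 304 CPM in females (median 153) and between 37.7 and 401 CPM in males (median 179). The copy kcnh4a averaged 18.5 CPM, and kcnh6a averaged 8.04 CPM with one of the smallest spreads of the set.

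The kcnj family summed to 325 ± 68.6 CPM over 21 genes, but its highest entry needs care. The identifier ENSDARG00000089255 (121.6 ± 35.9 CPM) carries the symbol kcnj11l in the annotated table and the symbol of cd59b, a membrane complement regulator, in the reference table of gene names. Without it the family summed to 203 ± 42.2 CPM and was led by kcnj3b. In mammals the kcnj3 product is a subunit of the G-protein-gated inward rectifiers that slow neurons on transmitter binding. The level of kcnj3b was 40.8 to 178 CPM in females (median 130) and 7.63 to 210 CPM in males (median 114). The next member, kcnj19b, averaged 60.1 CPM. The glial rectifier kcnj10a averaged 0.44 CPM and had counts in 23 fish. The subunit kcnj11 of the ATP-sensitive channel averaged 2.74 CPM. Reads of the tandem copies kcnj1a.1, kcnj1a.5 and kcnj1a.6, of kcnq1.1 and kcnq1.2, and of the pair of kcnj11l entries may have been divided uncertainly between copies.

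Leak channels of the kcnk family summed to 67.4 ± 31.5 CPM over 20 genes, and no single gene dominated. The highest was kcnk2a, the TREK-1 type channel that responds to stretch and lipids, with a mean of 27.1 CPM, followed by kcnk15 (10.6 CPM) and kcnk5a (9.91 CPM). The TASK-type kcnk3b averaged 5.02 CPM and kcnk9 0.88 CPM. In the kcnab family, whose products bind Kv1 channels, kcnab1b gave a median of 82.5% of 41.2 ± 12.2 CPM. The Kv1 family kcna itself summed to 12.4 ± 8.16 CPM, with kcna1a highest at a mean of 5.64 CPM.

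The M-current family kcnq summed to 21.1 ± 8.70 CPM and was led by kcnq5b (11.3 CPM). The modifier family kcng summed to 13.2 ± 6.35 CPM (kcng4a highest) and kcnf to 9.55 ± 7.92 CPM (kcnf1b highest). Low sums were found for kcnb (5.38 CPM, mostly kcnb2), the sodium-activated kcnt (4.64 CPM, mostly kcnt1) and kcne4, the only kcne gene in the set (3.59 CPM). The sums of kcns (0.62 CPM, kcns3a above kcns3b) and of kcnv2a (0.36 CPM) were below 1 CPM.

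The a and b copies were compared by the share of the pair's estimated counts that fell on each copy, without correction for length. There were 27 such pairs. Both copies passed the filter in 15, 1 copy in 7 and neither in 5. In 9 pairs the same copy held more counts in all 40 fish, the a copy in 4 (kcnc1, kcnh6, kcnk2 and kcnn1) and the b copy in 5 (kcnab1, kcnh4, kcnj19, kcnj3 and kcnq5). The share of kcnn1a was the least variable, with a median of 99.5% and a range of 97.0 to 100%. The share of kcnc1a had a median of 98.9% (89 to 100%), that of kcnj3a a median of 3.07% (0 to 8.81%), and that of kcnh4a a median of 11.1% (1.01 to 42.9%). In 3 further pairs, with counts in fewer fish, the other copy was never ahead: kcng4a led in 38 fish, kcnk1b in 36 and kcnk3b in 34. The copies of kcna2 were close, with the a copy ahead in 19 fish and the b copy in 18, and so were those of kcnab2 (23 and 16 fish). The share of kcnip3a lay anywhere between 2.15 and 84.7%, with the b copy ahead in 32 fish and the a copy in 8. These pairs were picked with their values in view.

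Both main kcnip genes varied in opposite directions over fish. Across 40 fish the coefficient of variation (SD over mean) was 0.87 for kcnip3b and 0.30 for kcnip1b, but only 0.16 for the sum of the 4 kcnip genes, which was the lowest of the 19 family sums. In females kcnip1b lay between 174 and 409 CPM (median 248) and kcnip3b between 6.87 and 141 CPM (median 38.2). In males kcnip1b lay between 46.6 and 406 CPM (median 230) and kcnip3b between 13.0 and 311 CPM (median 68.8). Every female had more kcnip1b than kcnip3b, and 18 of 20 males did. The fish with the most kcnip3b, a male, had 311 CPM of it and the least kcnip1b, 46.6 CPM, yet its kcnip sum was 364 CPM. The SD of the family sum over its 3 tested genes was 0.54 times the value that independent genes of the same variances would give. The other families with at least 2 tested genes had ratios of 0.83 (kcnab) to 1.48 (kcna). The CPM of kcnip1b and kcnip3b had a correlation of -0.65 over 40 fish (-0.43 in females, -0.70 in males and -0.53 without the 6 libraries of few genes), given as a description since both genes share each library's scaling. The same male was one of those 6 libraries. Without them the coefficients of variation were 0.64 for kcnip3b, 0.24 for kcnip1b and 0.14 for the sum. Opposite movement of the 2 genes with the highest means was not particular to kcnip. Their CPM correlation was -0.63 in kcnab and -0.62 in kcnc, and -0.61 and -0.67 without the 6 libraries. In the other families with at least 2 tested genes it lay between -0.30 and 0.76 over 40 fish. Summed markers of other cells moved with kcnip3b, with r = -0.70 for choroid plexus and ependyma, -0.53 for endothelium, -0.48 for radial glia and astroglia and -0.36 for microglia, and between -0.28 and 0.27 for the other 7 lists. Their part in the kcnip3b level was not tested.

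**Figure D2:**
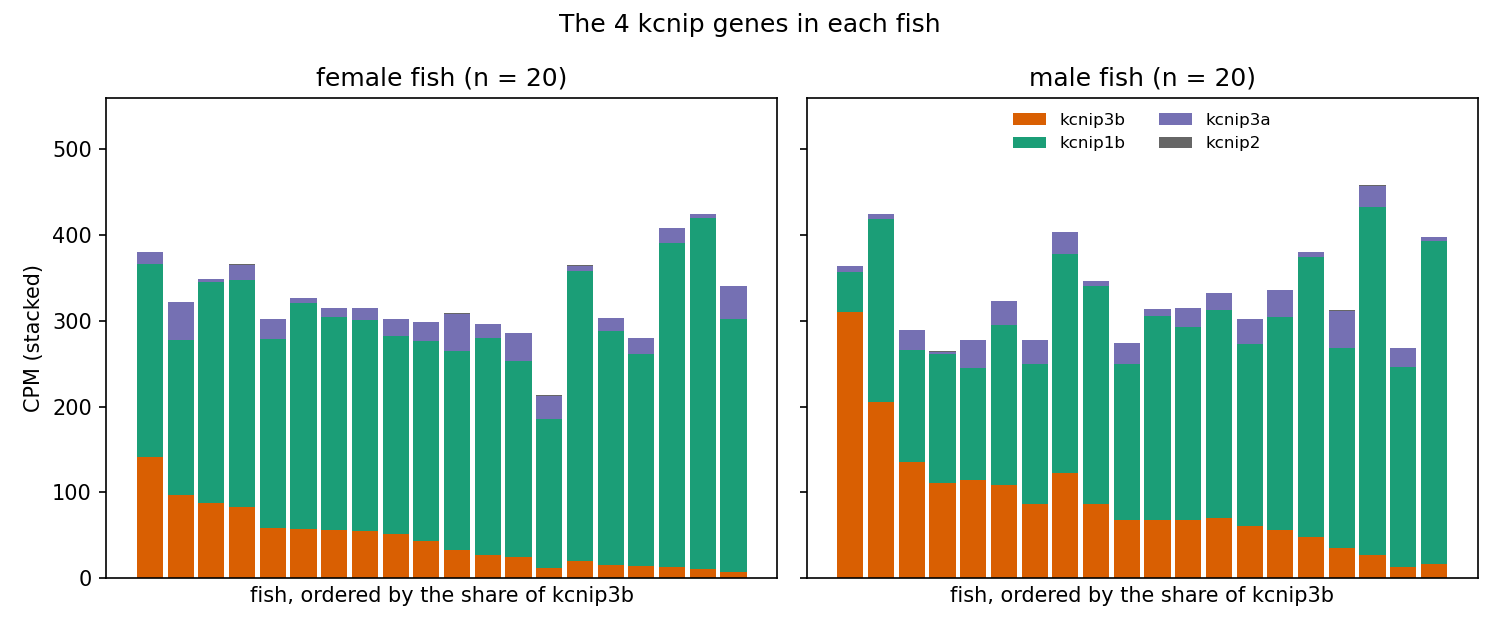
CPM of the 4 kcnip genes stacked for each fish, females in the left panel and males in the right, ordered by the share of kcnip3b. The column height stays between 213 and 458 CPM while kcnip3b takes between 2.02 and 85.3% of it.

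Among all genes tested, those whose log2 CPM followed kcnip3b most closely were uncx4.1 (r = 0.88), castor2 and dipk1c (0.86 each). The most opposite were CDH18, pcdh10b and bcl11aa (r = -0.82 for each). The product of uncx4.1 is a homeodomain transcription factor and bcl11aa encodes a zinc-finger transcription factor. For kcnc1a, the gene of the set with the most counts, the 5 closest members were kcnn1a (r = 0.80), kcnk2a (0.67), kcnd2 (0.66), kcnip1b (0.41) and kcnh4b (0.29). The most opposite members were kcnip3a (-0.78), kcnj11 (-0.77) and kcnj3a (-0.76). These correlations over 40 fish share library composition and are descriptions.

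The spread over fish was measured as the biological coefficient of variation (BCV), the part of the relative variation beyond counting noise in a model that lets the sexes differ in mean. Within each class of mean CPM the median BCV of the potassium channel genes was above that of all genes tested. At 100 CPM or more it was 0.41 for 7 members, against 0.26 for 1906 genes. At 30 to 100 CPM it was 0.43 for 5 members, against 0.26 for 3433 genes. At 10 to 30 CPM it was 0.61 for 5 members, against 0.36 for 3627 genes. At 3 to 10 CPM it was 0.81 for 21 members, against 0.61 for 3926 genes, and under 3 CPM it was 0.98 for 26 members, against 0.94 for 3983 genes. No test was made of these medians, and they are not given without the 6 libraries of few genes.

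**Figure D3:**
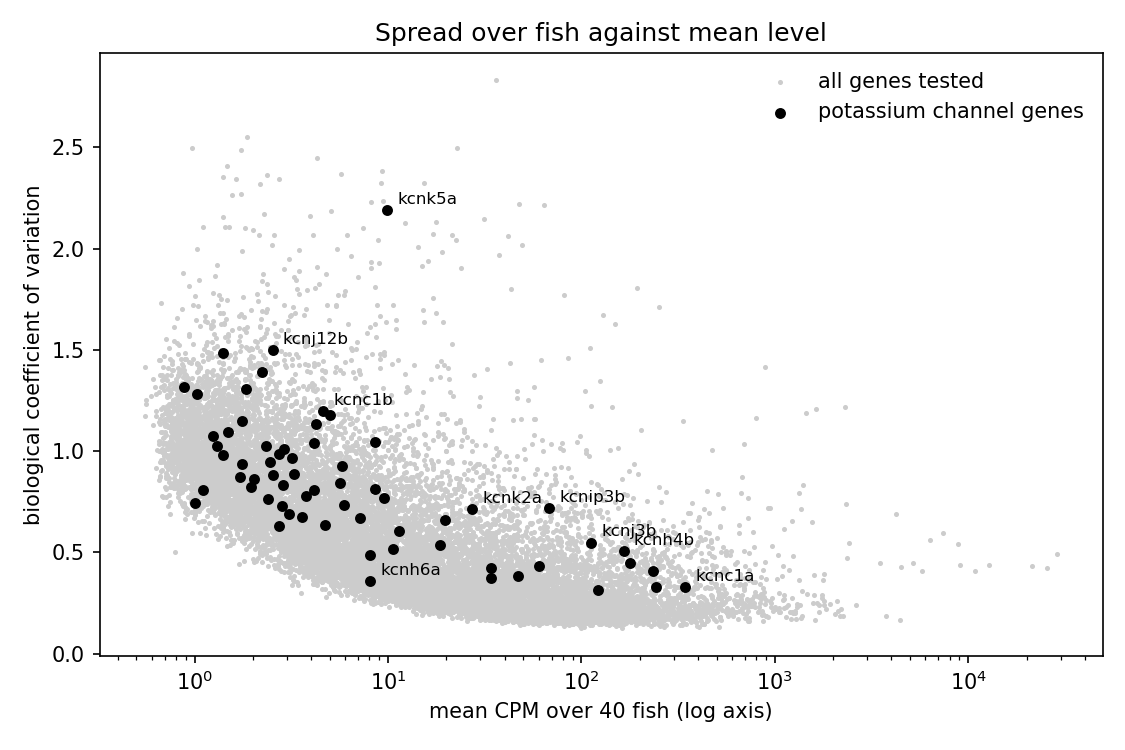
Biological coefficient of variation (vertical axis) against mean CPM over 40 fish (horizontal axis, log scale) for the 16875 genes tested (grey) and the 64 potassium channel genes among them (black). The gene kcnk5a stands at 2.19, and most members above 10 CPM lie in the upper part of the grey band.

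Among members with a mean of at least 1 CPM, the 8 with the highest BCV were kcnk5a (2.19), kcnj12b (1.501), kcnj19a (1.48), kcnd1 (1.39), kcnh8 (1.31), kcnab1a (1.28), kcnc1b (1.20) and kcnk3b (1.18). The 4 lowest were ENSDARG00000089255 (0.31, the entry whose symbol differs between sources), kcnc1a (0.33), kcnip1b (0.33) and kcnh6a (0.36). A BCV over 1 was found for 18 members, and for 10 in a fit without the 6 libraries of few genes, 9 of them among the 18. The share of all genes over 1 is not given here. Under 3 CPM, where 26 of the 64 members lay, the median BCV of all genes was already 0.94.

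The leak channel kcnk5a (TASK-2 type, opened by alkaline surroundings in mammals) ranged from no count in some fish to many CPM in others. It lay between 0 and 67.5 CPM in females (median 0.54) and between 0 and 31.1 CPM in males (median 0.40). No count at all was found in 7 females and 5 males, and the highest female had 903 counts. Between 1.27 and 3.79 CPM there was no fish, with 15 fish above this gap (8 females and 7 males) and 25 below it. The gap was picked with the values in view, and the one between 4.76 and 9.99 CPM was wider. The BCV of kcnk5a exceeded that of 99.8% of the genes of its CPM class. Of its 3 highest fish, 2 were among the 6 libraries of few genes. Without those 6 it did not pass the filter and has no BCV or fold change, but its plain coefficient of variation was 1.72 over the other 34 fish, against 1.73 over 40. In the 34 the gap lay between 1.16 and 3.79 CPM, with 13 fish above it and 21 below. The copy kcnk5b had 0 to 6.80 CPM in females (median 2.13) and 0 to 11.4 CPM in males (median 2.57), and the log2 CPM of the copies had a correlation of only -0.09. The level of kcnk5a had r = -0.09 and rho = -0.14 with the number of genes detected (adjusted permutation p = 0.63 and 0.52). Its summed-marker correlations were between -0.19 and 0.23 for all 11 cell type lists, red blood cells, skin and choroid plexus included. No gene tested followed it closely, the nearest being cyp1c1 (r = 0.58).

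The TASK-type kcnk3b also varied strongly, from 0 to 13.2 CPM in females (median 3.75) and from 0 to 17.4 CPM in males (median 3.81), but in company. Its log2 CPM had r = 0.93 with adrb1, a beta-adrenergic receptor, 0.92 with epb41l4b and 0.90 with dacha, and r = -0.88 with gphnb and -0.86 with gphna, both encoding the inhibitory-synapse scaffold gephyrin. The correlation of kcnk3b with the number of genes detected was weaker (r = 0.37, and 0.22 without the 6 libraries of few genes). Some of those 6 libraries had no count of kcnk3b. Its correlations with the genes named here are over all 40 fish and are not given without those libraries. The genes were chosen as the extremes among all genes tested.

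The number of potassium channel genes found in a fish followed how many genes its library detected. It was 50 to 100 in females (median 84) and 53 to 98 in males (median 82), and its correlation with the number of all genes detected was r = 0.97 and rho = 0.97. This is a description, since the members are part of the total. The r was 0.98 within females, 0.96 within males, 0.97 within the first flow cell, 0.96 without the 2 fish farthest from the median and 0.94 without the 6 libraries of few genes. The flow cell was read from a code in the column names, and no label names it. The second flow cell held only 1 female and 2 males and was too small for a value. Those 6 libraries held 50 to 64 members, against 68 to 100 in the other 34.

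Levels moved with the same measure in both directions. Of the 64 tested members, 33 had a positive correlation of log2 CPM with the number of genes detected at an adjusted permutation p under 0.05, against 38.2% of all genes tested, and 4 had a negative one, against 17.3%. As shares of the 64 these were 51.6% and 6.25%. The shares were not matched for mean CPM. Of the 64 members, 26 lay under 3 CPM and 21 at 3 to 10 CPM. A gene without a count in a fish also lowers that fish's number of genes detected, which the permutation p does not allow for. The median r was 0.37 over members and 0.22 over all genes tested. An r above 0.5 was found in 24 members and in 22.6% of all genes, and an r below -0.5 in 4 members and in 11.3% of all genes. Without the 6 libraries of few genes these counts of members were 24 and 3, and the shares of all genes without them are not given.

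The 4 negative members included 3 of the genes with the most counts, kcnc1a (r = -0.75), kcnn1a (-0.74) and kcnd2 (-0.51), together with kcnk2a. The strongest was kcnk2a, with r = -0.95 and rho = -0.90 (adjusted permutation p = 8.09e-05 and 0.000124, the smallest values reached). It was -0.94 within females, -0.95 within males, -0.92 without the 2 farthest fish and -0.86 without the 6 libraries of few genes. In those 6 libraries kcnk2a lay between 45.4 and 112 CPM, against 8.40 to 49.95 CPM in the other 34, and its BCV was 0.71 with them and 0.44 without them. For kcnd2 the r dropped to -0.39 without the 6 libraries. With the opposite sign, kcnj3a had r = 0.81, kcnc1b 0.78, the kcnj11l entry ENSDARG00000031438 0.75 and kcnip3a 0.74. Without the 6 libraries these were 0.55, 0.68, 0.69 and 0.57, and those of kcnc1a and kcnn1a were -0.77 and -0.54. The levels of kcnj3a and kcnc1b in the 6 libraries were 0 to 1.32 CPM and 0 to 3.55 CPM, against 0 to 11.9 CPM and 0 to 18.6 CPM in the others. Several marker sums moved with the same measure. The r was 0.65 for radial glia and astroglia, 0.65 for microglia, 0.64 for endothelium and 0.54 for choroid plexus and ependyma. It was -0.36 for skeletal muscle, -0.09 for neurons and between -0.17 and 0.10 for the other lists. The part of library composition and of these cell types in the members' levels was not tested, and in whole brain tissue fewer cells of a type cannot be told apart from less RNA per cell.

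**Figure D4:**
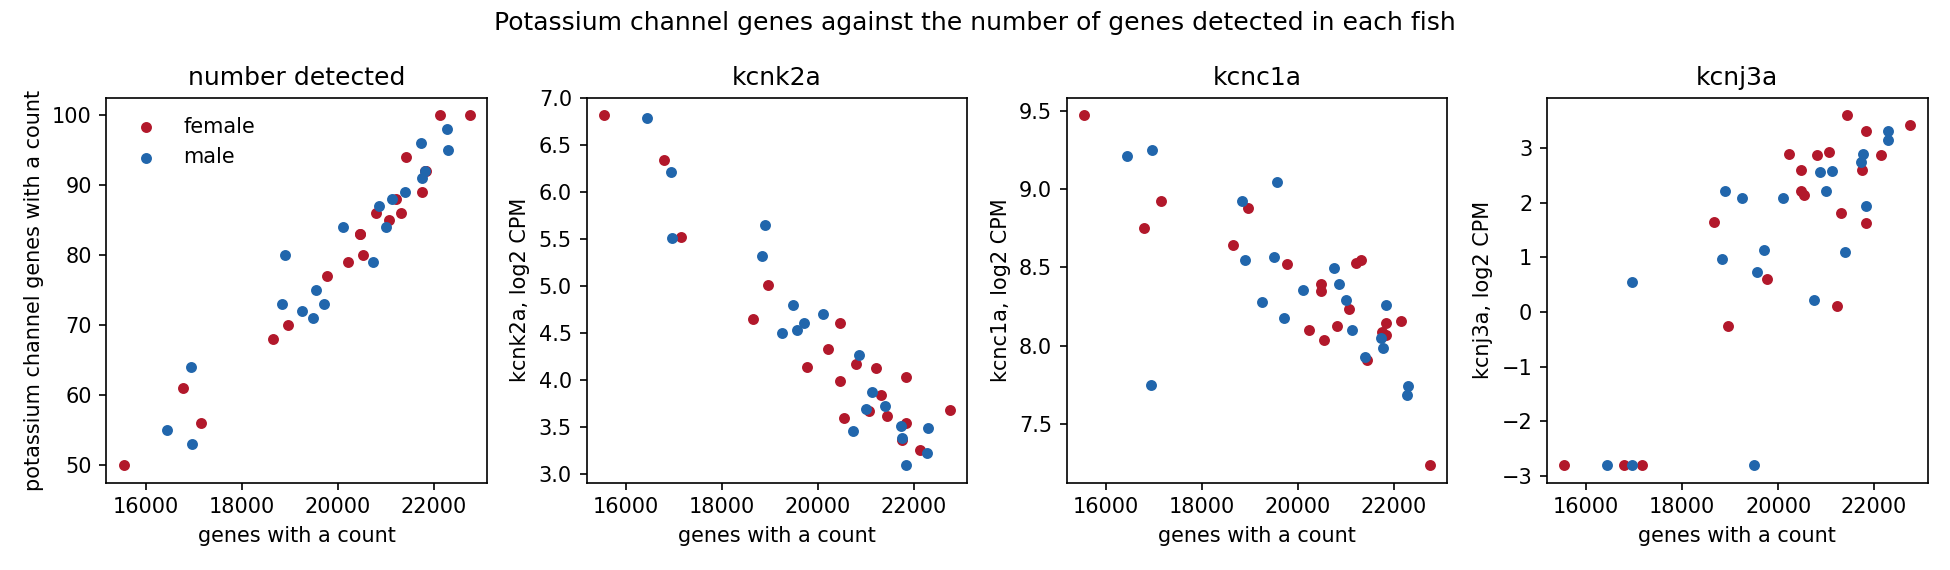
Per fish, the number of potassium channel genes with a count and the log2 CPM of kcnk2a, kcnc1a and kcnj3a (vertical axes) against the number of all genes with a count (horizontal axes), for 20 females and 20 males. The number of members and kcnj3a increase to the right and kcnk2a and kcnc1a decrease (r = 0.97, 0.81, -0.95 and -0.75).

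Females were compared with males in edgeR's quasi-likelihood test. No potassium channel gene differed at an adjusted p under 0.05, and neither did any of the 16875 genes tested (0%). At an unadjusted p under 0.05 there were 2 of 64 members, against 376 of 16875 genes (2.23%). DESeq2 also called 0 genes and gave 390 at an unadjusted p under 0.05. The fitted change was positive (higher in females) in 36 members and negative in 28, with a median log2 fold change of 0.09, against -0.0032 over all genes. The 95% intervals reached 0.28 to 0.51 on either side of the log2 fold change for the 7 members at 100 CPM or more and 0.83 as a median over the 64.

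The smallest p among members was that of kcnip3b. It averaged 45.3 ± 35.5 CPM in females and 90.5 ± 69.0 CPM in males (SD, n = 20 each), a log2 fold change of -0.999 ± 0.342 (SE, edgeR adjusted p = 0.9999, unadjusted p = 0.0056). Both ranges overlapped widely, and the difference failed correction over all genes. Without the 6 libraries of few genes the log2 fold change was -0.58 (edgeR unadjusted p = 0.085). Its correlations with marker sums, given above, were not part of this fit. The second was kcnn3, with 16.1 to 86.0 CPM in females (median 33.6) and 12.5 to 58.1 CPM in males (median 30.1). Its log2 fold change was 0.34 ± 0.17 (SE, edgeR unadjusted p = 0.0496), and 0.26 without the 6 libraries (edgeR unadjusted p = 0.16). For kcnn2 the mean was 2.40 ± 4.94 CPM in females and 1.11 ± 0.95 CPM in males, but a single female held 21.8 CPM. Without her the female mean was 1.38 CPM.

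The other 7 of the 10 members with the smallest p were kcng4a, kcnip1b, kcnj1b, kcnk15, kcnj13, kcnk10a and kcnk5a. Their unadjusted p lay between 0.11 and 0.22 in the edgeR fit. Without the 6 libraries the log2 fold change was 0.038 for kcnip1b, against 0.22 in all fish, -0.39 for kcng4a, against -0.60 (edgeR unadjusted p = 0.017 without them), 0.17 for kcnk15, against 0.34, and -0.22 for kcnj13, against -0.43. The means were 4.70 CPM in females and 7.11 CPM in males for kcng4a, 260 CPM in females and 223 CPM in males for kcnip1b, and 13.7 CPM in females and 6.11 CPM in males for kcnk5a. The log2 fold change of kcnk5a was 1.16, with an interval of -0.72 to 3.04. That of kcnc1a was 0.00025, the nearest to 0 among the abundant members. Summed over all members, the level was 1898 ± 288 CPM in females and 1924 ± 243 CPM in males.

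**Figure D5:**
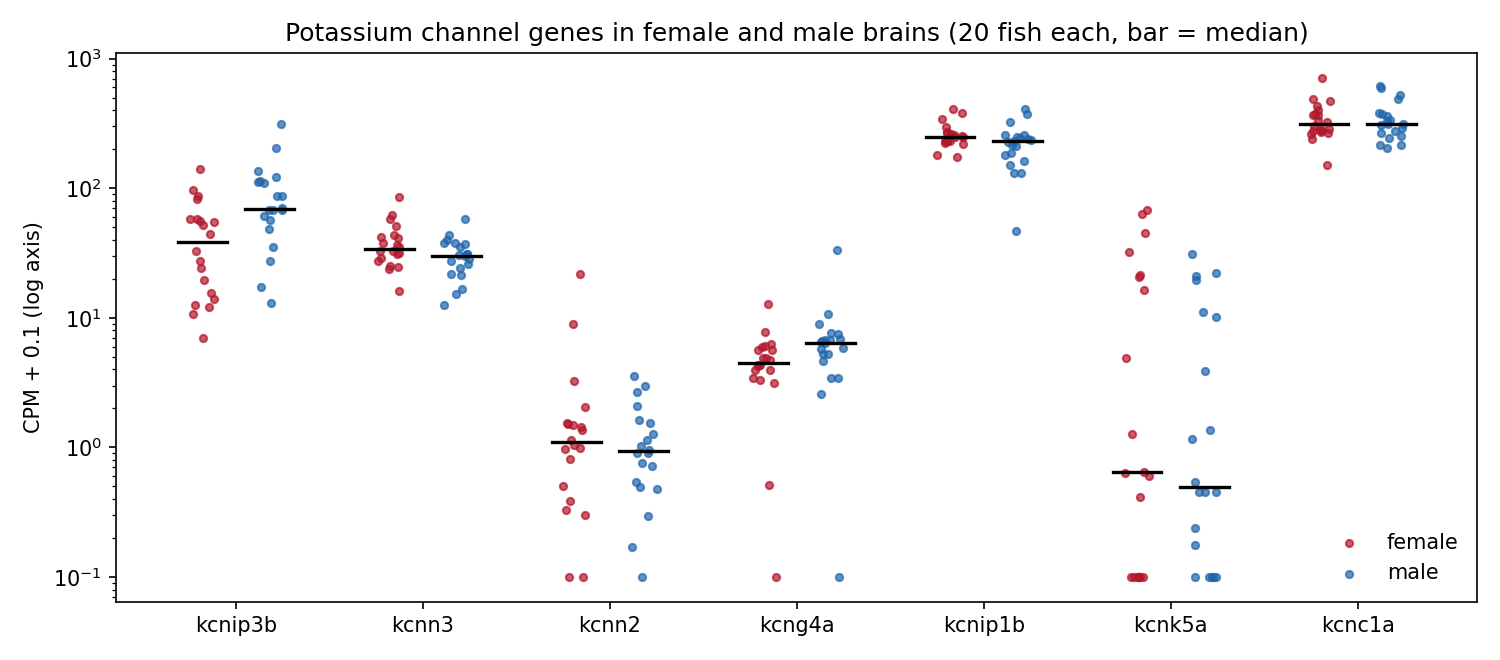
CPM (vertical axis, log scale, 0.1 added) of 7 potassium channel genes in each fish, females left and males right, with bars at the medians. The points of the sexes overlap for every gene, and kcnk5a is high in some fish and near 0 in others in both sexes.

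Genes that work with these channels were read from the same fit. The lists held 16 tested genes for channel partners and 4 for the hyperpolarisation-activated hcn channels. A further 12 were for subunits of the sodium-potassium pump and 7 for potassium cotransporters. Of all these, 0 differed between the sexes at an adjusted p under 0.05 in edgeR, against 0% of all genes tested. At an unadjusted p under 0.05 there was 1, against 2.23% of all genes tested, a similar share. That gene was abcc8, which encodes the sulfonylurea receptor of the ATP-sensitive channel. It averaged 45.6 ± 8.33 CPM in females and 53.5 ± 14.3 CPM in males (log2 fold change -0.23, unadjusted p = 0.025). The list medians of the log2 fold change were -0.0051, 0.021, 0.060 and -0.053. The partner of Kv4 channels dpp6b averaged 207 ± 42.9 CPM in females and 238 ± 58.2 CPM in males, and it was also the gene most opposite to kcnk5a over fish (r = -0.54).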

How the data were processed

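Brain poly-A RNA of 40 fish was sequenced with paired reads. The authors processed the reads with the nf-core/rnaseq pipeline against GRCz11 and deposited salmon estimated counts per gene. The paper names a directional library kit, but the libraries were declared as unstranded for this processing. The counts therefore do not tell apart reads of overlapping antisense genes. The base mean, a score column of the authors' annotated table, was read but not used for any result. Their other columns there hold fold changes and p-values by feed and were not used, nor were 80 per-fish columns that repeat the same libraries. Estimated counts were rounded, filtered with filterByExpr, scaled by TMM and fitted by sex in edgeR 4.0.16 (R 4.3.3), with Benjamini-Hochberg adjustment over 16875 genes. DESeq2 1.42.0 was an alternative. Log2 CPM used a prior count of 2. Correlations with the number of genes detected used 100000 permutations (two-sided, adjusted over all genes tested). On simulated data for the sex comparison (16875 genes), 71% of 100 genes changed 2-fold and 83% of 100 changed 4-fold were recovered. The changed genes were drawn from all genes tested, and each gene varied independently of the others. Both sets of changed genes were planted in the same run, so the adjustment passed larger p-values than it would with few changed genes. Variation that genes share within a library was not simulated. For these reasons the percentages are not a recovery rate for the members or for a comparison with few changed genes.

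The sex of a column rests on the name of its table. Named members were, per family, the one with the highest mean CPM, the 10 with the smallest p, the 8 highest and 4 lowest in BCV, and the 5 most like kcnc1a. Other members are named as family context, for their detection or as copies, and were picked with their values in view. The part of the rule on copies needs transcript lengths, which were not used here, and pairs are given by shares of counts. Members and lists were chosen with earlier results of these data known. Some symbols of the pattern are not reported here. Sequences were not used here. The depth of 9392146 to 19131418 counts limits genes under 1 CPM.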

Additional observations from a re-analysis of the deposited data

How the results depend on the processing

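The alternatives for the sex comparison were size factors, no filter on low counts, unrounded counts, robust estimation, the flow cell as a covariate, leaving out the library of the lowest total, DESeq2 and, chosen after seeing the data, leaving out the 6 libraries of few genes. All genes called were 0 under each except without a filter, where 13 of 27947 genes were called. None of the 13 was a potassium channel gene, and 0 of them passed the filter. Members called were 0 throughout. Members with an unadjusted p under 0.05 were 6 without a filter and 1 with the flow cell covariate or without the 6 libraries, against 2. Genes with an unadjusted p under 0.05 were 2726 without a filter, against 376. In the 10 members with the smallest p, all 79 alternative fold changes kept their direction. Their adjusted p stayed above the threshold (lowest adjusted p 0.13). A kept direction is a weak check here, since these members were picked by p in the same data. The size of some fold changes moved. The log2 fold change of kcnn2 was 0.2837 in DESeq2, against 1.103 in edgeR. The DESeq2 defaults replace outlying counts in groups of 20, and the part of this in the kcnn2 value was not tested. Without the 6 libraries that of kcnip3b was -0.58, against -0.999, and kcnk5a was not fitted. All 38 alternative family sums moved by less than 1 SD. This margin was wide, since the SD over fish was larger than the mean for kcns, kcnmb and kcnv. Without the 6 libraries the sum was 242 CPM for kcnn, against 272 CPM, and 58.2 CPM for kcnk, against 67.4 CPM. For kcnj it was higher, 340 CPM against 325 CPM. Members at a mean of 1 CPM or more numbered 63, 72 at 0.5 CPM, 50 at 2 CPM and 62 with plain CPM. Members with a BCV over 1 numbered 18, with no share over all genes given. A plain coefficient of variation over 1 was found in 9 tested members, 8 of them among the 18, and without the 6 libraries a BCV over 1 was found in 10, 9 of them among the 18. The cause was not tested. The length and copy-order alternatives were not run. No paired analysis was possible because the count columns carry no replicate number. In edgeR the groups of 20 were not tested for single outlying fish, while DESeq2 ran with its default handling of outlying counts.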
